A study of Homo sapiens with 4 samples.

Results

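The genes described here make up the splicing machinery and its regulators: proteins of the small nuclear ribonucleoproteins (snRNPs), accessory spliceosome factors, SR proteins, hnRNP proteins, the kinases that phosphorylate SR proteins, and RNA-binding motif (RBM) proteins. They were chosen by gene name, using the prefixes SRSF, HNRNP, SF3A, SF3B, PRPF, SNRP, SNRNP and U2AF, the prefixes LSM and RBM followed by a digit, and a short list of single genes such as the CLK kinases. The rule found 97 genes among the 8727 in the authors' deposited table, and used no measured value beyond the gene's presence there. The study sequenced polyadenylated RNA of HepG2 cells, a human liver cancer line that the labels call hepatoblastoma, in 4 libraries. The isoginkgetin group, 2 libraries, came from HepG2 cells given 20 µM of the compound for 24 h, and the DMSO group, 2 libraries, came from HepG2 cells given the solvent. No allele or other agent is named for either group, and the labels do not say whether the replicates were separate cultures, so the p-values rest on a spread between libraries that may be technical.

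Splicing removes introns from pre-mRNA on the spliceosome, which is built from the U1, U2, U4, U5 and U6 snRNPs and many proteins. U1 marks the 5′ splice site, U2AF and U2 mark the 3′ splice site and branch point, and the U4/U6-U5 particle joins before catalysis. SR proteins mostly promote the use of nearby sites, hnRNP proteins often oppose them, and CLK and SRPK kinases control SR proteins by phosphorylation. Isoginkgetin, a plant biflavonoid, is known to block the splicing of pre-mRNA, and the series title points to autophagic death of liver cancer cells.

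The values are those of the authors' deposited table, in which each gene has 1 mean normalized count over the libraries and 1 log2 fold change, beside a standard error (SE) and p-values, and which holds genes with an adjusted p under 0.05. A value for each library is not analysed here, so no spread between single libraries and no total count per library can be shown. A positive log2 fold change is called higher and a negative one lower, read as isoginkgetin over DMSO. The table does not name the numerator, and every direction would turn if the order were the other way round. Intervals given below are the log2 fold change ± 1.96 SE (95%, normal approximation). Pairs of genes compared below were picked after values were seen. Both genes of a pair had passed the threshold, so an interval off 0 between a higher and a lower gene was largely fixed in advance. Such intervals give the size of a difference and are no test that relatives diverge. A gene's total does not tell spliced from unspliced RNA, and in bulk RNA fewer cells and less RNA per cell cannot be told apart. Of 12 hepatocyte markers 11 had a value in the authors' deposited table, all of them lower. They ran from −0.13 for the fibrinogen chain gene FGG to −1.64 for FGA. A row there means a change past the threshold, so such counts do not show the identity of the cells. Mean normalized counts reached 157429 for the hepatocyte marker APOB, and the leukocyte marker LYZ stood at 15328. Of 11 markers of fibroblasts, leukocytes and endothelium 4 had a value, all lower, and their part in the results below was not tested.

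Most splicing genes with a value were modestly higher after isoginkgetin. Of the 97, 77 were higher and 20 lower and the median log2 fold change was 0.42 in the authors' deposited table. Of the 20024 genes tested behind it, 43.6% passed the threshold, 22.4% of those tested being higher and 21.1% lower. The median over the 8727 that passed was 0.21. RefSeq lists 152 protein-coding genes under the rule, and 95 of them (62.5%) had a row in the authors' deposited table. The other 57, among them PRPF8, SNRNP70, SRSF3, HNRNPA1 and PTBP1, have no value and are not analysed here. Of all 20056 RefSeq protein-coding names 7106 (35.4%) had a row. Both shares count names whether or not they were tested, unlike the 43.6%. The changes of the splicing genes were mostly under 2-fold. A 2-fold change was reached by 8 of the 97 (8.25%) in the authors' deposited table, 7 higher and 1 lower, against 31.4% of its 8727 genes, which are 13.7% of all genes tested. The median size of the log2 change was 0.50 for the splicing genes against 0.70 for the table. The splicing genes were measured at high levels, with 70 of 97 at a mean normalized count of 1000 or more. Of those 70 genes 56 (80.0%) were higher in the authors' deposited table, against 57.9% of all 3645 genes at that level. The median size of the log2 change at that level was 0.46 for the splicing genes and 0.49 for the table. A 2-fold change was reached there by 2 of the 70 (2.86%), against 12.4% of the 3645. The members and their groups were chosen with earlier results of these data known, so these shares are a description and no test of a list was made.

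**Figure D1:**
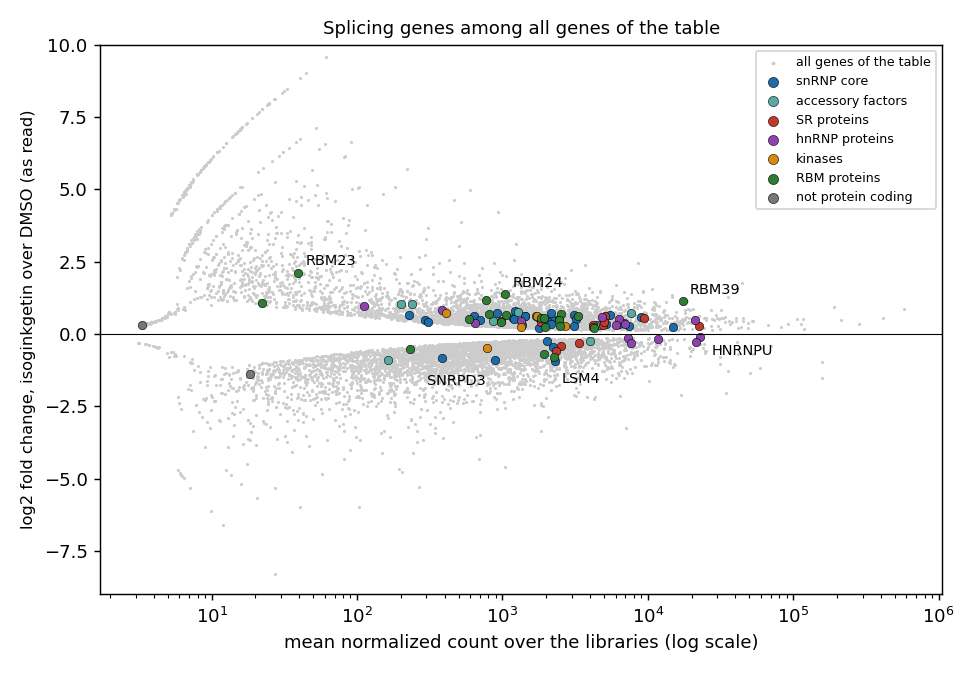
Log2 fold change (isoginkgetin over DMSO, as read) against the mean normalized count on a log axis, with 1 point per gene of the authors' deposited table and splicing genes coloured by role. The 97 splicing genes lie close to 0 compared with the grey cloud taken over all counts, 77 above the line and 20 below. Among the 70 with counts of 1000 or more RBM24 and RBM39 are highest and LSM4 is lowest.

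Each role group held more higher than lower genes. In the authors' deposited table the snRNP core had 29 higher and 5 lower genes (median 0.47), and accessory factors had 8 and 2 (median 0.50). The snRNP core as grouped here takes in every LSM-named gene, also those outside the spliceosome. Without the LSM genes it had 24 higher and 2 lower genes (median 0.45). SR proteins and their relatives had 9 higher and 3 lower genes (median 0.30), and hnRNP proteins had 9 and 5 (median 0.35), in the authors' deposited table. Kinases stood at 4 higher and 1 lower (median 0.27), and RBM genes at 17 and 3 (median 0.56), in the same deposited table of the authors. The share of higher genes ran from 64.3% for hnRNP proteins to 85.3% for the snRNP core. It was 51.5% over the whole table and 57.9% over its genes at counts of 1000 or more. Whether these shares differ between groups was not tested.

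Apart from the Sm ring that U2 shares with other snRNPs, every U2 snRNP gene under the rule was higher. U2 binds the branch point through its SF3A and SF3B subcomplexes. All 11 RefSeq genes of this particle outside the Sm ring that fit the rule had a row in the authors' deposited table. For all RefSeq protein-coding names the share with a row was 35.4%. The log2 fold changes of the 11 ran from 0.25 to 0.71. SNRPB2, the U2 B-type protein that holds the stem loop of U2 RNA, was highest at 0.71 (adjusted p 4.06e-18, SE 0.08) in the authors' deposited table. The 3 SF3A subunits were at 0.66 for SF3A3, 0.33 for SF3A1 and 0.27 for SF3A2 in the authors' deposited table, so the subunits of this trimer were higher to unequal degrees. The difference between SF3A3 and SF3A2 was 0.38 (95% interval 0.20 to 0.57). SF3B1, the large subunit that clamps the branch helix, had a mean normalized count of 14957 and stood at 0.25 (adjusted p 3.81e-06, SE 0.05) in the authors' deposited table. SF3B3, a scaffold subunit, was at 0.37 (adjusted p 3.09e-11, SE 0.05) there, and its difference from SF3B1 had an interval across 0 (SF3B1 minus SF3B3, −0.12, interval −0.27 to 0.03). SF3B6, the small protein at the branch adenosine, stood at 0.63 and SF3B2 at 0.58 in the authors' deposited table. The remaining U2 genes SF3B5, SF3B4 and SNRPA1 lay at 0.50, 0.33 and 0.32 in the authors' deposited table. PHF5A, the further SF3B subunit that the name rule leaves out, was at 0.31 (adjusted p 0.0103, SE 0.11) in the authors' deposited table.

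Promoters of most of these U2 genes held the same short sequence, singled out after the matches were seen. In RefSeq's promoter sequences (build GRCh38.p14, the first listed start of each gene, 250 bases before it), the letters CCGGAAGT on either strand, the core bound by ETS-family factors, occurred in 7 of the 10 U2 genes with an entry. The matches are shown with up to 20 bases on each side, cut at the transcription start, in capitals where CCGGAAGT or its reverse complement stands, and written along the gene's own strand.
SF3A1: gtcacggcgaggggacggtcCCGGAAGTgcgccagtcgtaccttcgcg
SF3A2: gagggcccgtctcatttgccCCGGAAGTg
SF3A3: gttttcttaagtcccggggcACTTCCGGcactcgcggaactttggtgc
SF3B2: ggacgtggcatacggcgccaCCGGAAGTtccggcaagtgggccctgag
SF3B4: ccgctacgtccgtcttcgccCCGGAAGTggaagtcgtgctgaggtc
SF3B6: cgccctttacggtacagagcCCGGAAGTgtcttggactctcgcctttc
SNRPA1: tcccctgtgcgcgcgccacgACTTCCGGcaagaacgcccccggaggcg
These stretches lie at chr22:30356916-30356963 (minus strand) for SF3A1, chr19:2236795-2236823 (plus) for SF3A2 and chr1:37990064-37990111 (minus) for SF3A3. Those of the SF3B genes lie at chr11:66052291-66052338 (plus) for SF3B2, chr1:149927804-149927849 (minus) for SF3B4 and chr2:24076458-24076505 (minus) for SF3B6. The SNRPA1 stretch lies at chr15:101295335-101295382 (minus), and all are upstream of the start and outside the transcript as RefSeq places it. The match begins 9 bases before the start in SF3A2, 26 in SF3B4, 49 in SF3A1, 53 in SF3B2, 69 in SF3A3, 114 in SNRPA1 and 159 in SF3B6. Among all members 17 of 87 promoters with an entry (19.5%) held the letters, against 7.52% of 5774 other protein-coding genes of the table and 5.09% of all 15843 protein-coding genes with a promoter. Of other table genes at a mean normalized count of 1000 or more 8.77% held them. The 7 U2 genes shown above are all higher and are counted again among the 17, so the members' share is not separate from them. Outside the snRNP core the letters were in 2 of 9 accessory, 2 of 11 SR, 1 of 14 hnRNP, 0 of 5 kinase and 2 of 19 RBM promoters. With the same 7 U2 genes included, the letters occurred in 15 of 69 promoters of higher members and in 2 of 18 of lower members. The lower ones are SRSF5 and U2SURP, shown because they carry the same letters beside a change in the other direction.
SRSF5: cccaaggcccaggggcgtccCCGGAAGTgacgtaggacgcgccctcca
U2SURP: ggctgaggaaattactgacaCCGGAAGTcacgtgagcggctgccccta
They lie at chr14:69767065-69767112 and chr3:143001453-143001500, both on the plus strand.

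Of 7 motifs searched on both strands, the CRE core TGACG was in 46.0% of the members' promoters, against 30.2% of other table genes and 25.6% of all protein-coding promoters. Among other table genes at the high mean normalized counts also used for CCGGAAGT, the TGACG share was 32.6%. TGACG stood in 35 of 69 higher (50.7%) and in 5 of 18 lower members (27.8%). The CCAAT box (CCAAT) was in 46.0% of members' promoters, 35.3% of other table genes and 34.5% of all. It leaned the other way, with 30 of 69 higher (43.5%) and 10 of 18 lower members (55.6%). The GC box (GGGCGG) was in 60.9% of members' promoters, 68.0% of other table genes and 56.0% of all. It stood in 43 of 69 higher (62.3%) and 10 of 18 lower members (55.6%). TATAAA was in 6.90% of members' promoters, 5.44% of other table genes and 9.23% of all, with 6 of 69 higher and 0 of 18 lower members. The E box CACGTG was in 11.5% of members' promoters, 9.02% of other table genes and 7.84% of all. Like the CCAAT box it leaned to lower members, with 7 of 69 higher (10.1%) and 3 of 18 lower (16.7%). Whether any of these shares differ was not tested. The composite element TGATGNAAT, which ATF4 is known to bind, was in 0 of 87 members' promoters and in 0.537% of all. A match of letters is neither a bound site nor a cause of a change. Matches of different motifs can overlap, as in SRSF5, where the last letter of CCGGAAGT is the first of TGACG.

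**Figure D2:**
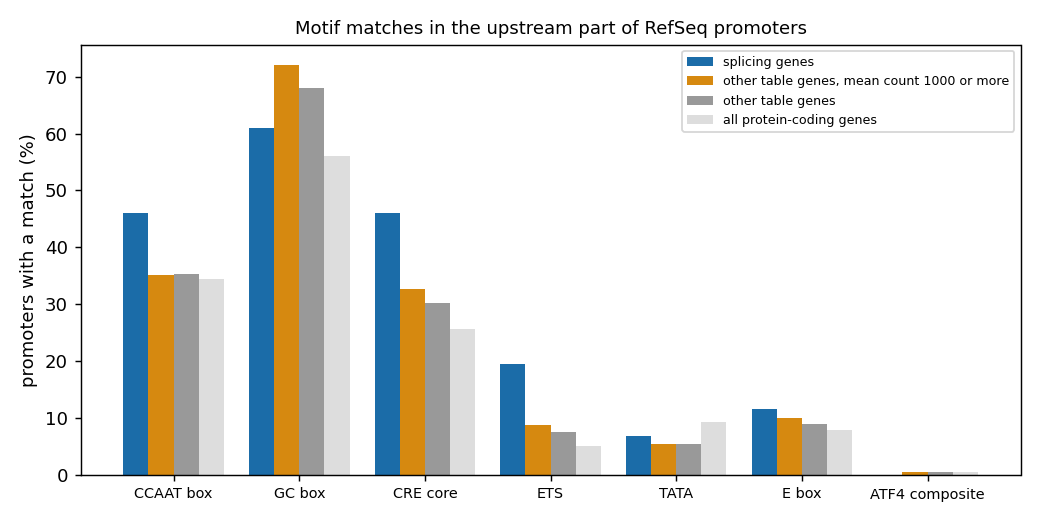
Share of promoters (percent, 250 bases before the start) that hold each of 7 motifs, for splicing genes, other table genes at a mean normalized count of 1000 or more, all other table genes, and all protein-coding genes. The ETS (19.5%), CRE (46.0%), CCAAT (46.0%) and E box (11.5%) bars of the splicing genes stand above the other 3 bars. Their GC box bar (60.9%) stands below those of other table genes.

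The U1 and tri-snRNP genes with a value mostly leaned the same way. Of the RefSeq names under the rule, 2 of 3 for U1 and 5 of 10 for the tri-snRNP had a row, against 35.4% of all protein-coding names. SNRPA, which binds a stem loop of U1 RNA, and SNRPC, which steadies the pairing of U1 with the 5′ splice site, had log2 fold changes of 0.65 and 0.50 in the authors' deposited table. PRPF3 and PRPF4, partners on the U4/U6 duplex, were at 0.78 (adjusted p 5.43e-15, SE 0.10) and 0.63 in the authors' deposited table, and their difference had an interval across 0 (−0.12 to 0.41). PRPF6, which bridges the parts of the tri-snRNP, was at 0.36 and SNRNP27, a small tri-snRNP protein, at 0.47 in the authors' deposited table. The U5 protein gene SNRNP40 lay on the other side of 0, with −0.24 in the authors' deposited table. The minor spliceosome, which removes a rare class of introns, gave 3 higher genes in the authors' deposited table: RNPC3, which binds U12 RNA, at 0.66, SNRNP48 at 0.42 and SNRNP35 at 0.41.

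Sm and LSm genes split. Sm proteins form the ring around U1, U2, U4 and U5 RNA, and the related LSm proteins ring U6 RNA in the nucleus or direct mRNA decay in the cytoplasm. Of the Sm ring SNRPD2 was at 0.54, SNRPF at 0.50, SNRPB at 0.27 and SNRPD1 at 0.19 in the authors' deposited table. SNRPD3 was lower at −0.90 (mean normalized count 894, adjusted p 2.26e-13, SE 0.12) in the authors' deposited table. SNRPD2 exceeded SNRPD3 by 1.44 on the log2 scale (interval 1.15 to 1.72), although both proteins sit in the same ring in equal number. In GENCODE's gene spans SNRPD3 overlaps GUCD1, GGT1 and LRRC75B, which were lower too in the authors' deposited table, at −0.68, −1.89 and −1.30. GGT1 lies on the same strand as SNRPD3, GUCD1 and LRRC75B lie on the opposite one, and the kit kept no strand. Reads of the 4 genes therefore cannot be told apart where they overlap, and the part of the partners in the SNRPD3 value was not tested. LSM4, a subunit of both the nuclear and the cytoplasmic LSm ring, had the lowest change of the snRNP core at −0.94 (mean normalized count 2293, adjusted p 5.84e-27, SE 0.09) in the authors' deposited table. No other gene of that table overlaps LSM4. Its ring partners LSM3 and LSM7 were higher at 0.61 and 0.53, and LSM1, which marks the cytoplasmic ring, was at 0.47, in the authors' deposited table. LSM10 and LSM11, the pair that replaces Sm proteins in the U7 snRNP of histone mRNA processing, went apart: LSM10 was at 0.72, and LSM11 at −0.84 (adjusted p 1.49e-06, SE 0.17), in the authors' deposited table. Their difference was 1.56 (interval 1.16 to 1.96). The LSm-like genes LSM12 and LSM14B, which are outside the rings, were at 0.61 and −0.45 in the authors' deposited table.

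**Figure D3:**
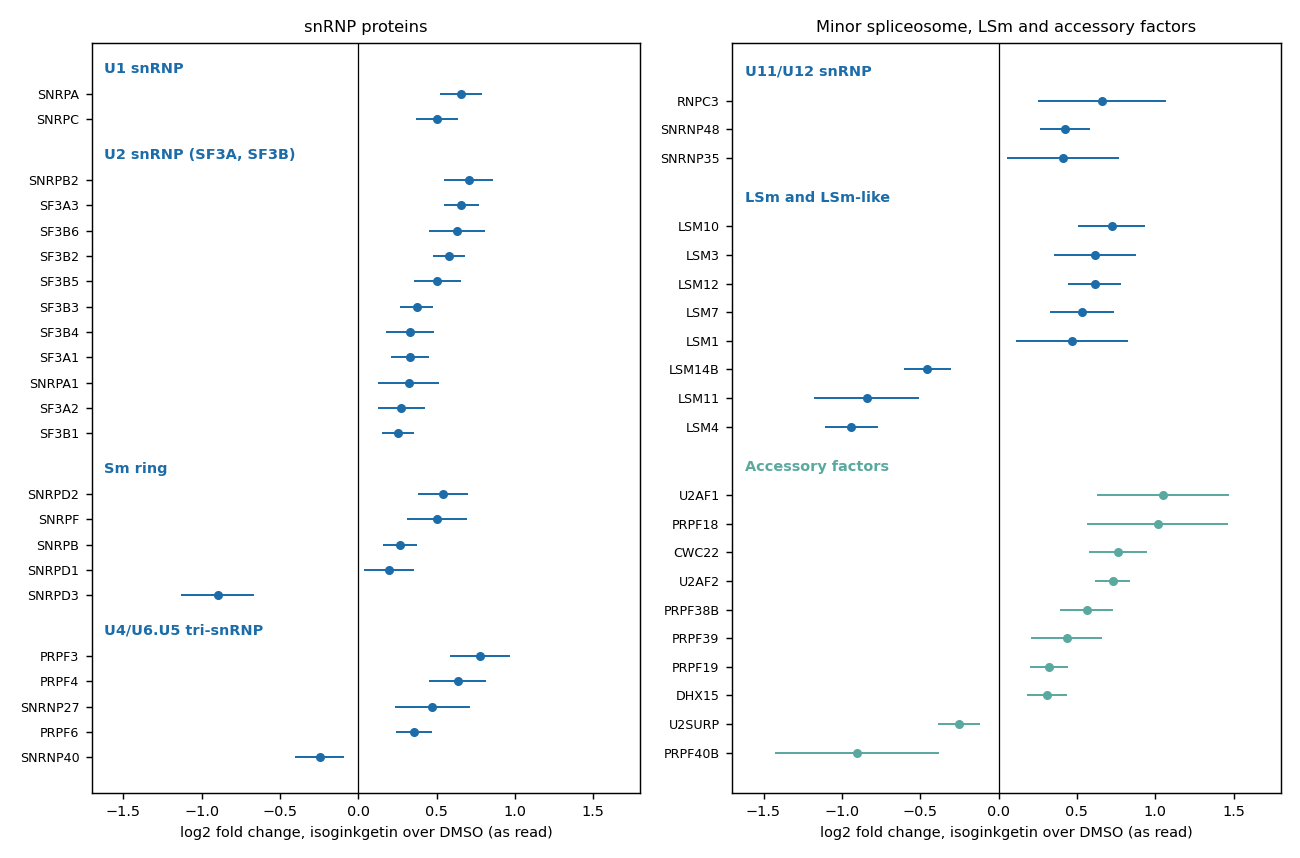
Log2 fold change (isoginkgetin over DMSO, as read) of snRNP, LSm and accessory genes in the authors' deposited table, with 1 point per gene and bars of 1.96 SE on each side. All 11 U2 genes outside the Sm ring lie right of 0. SNRPD3 (−0.90), SNRNP40 (−0.24), LSM14B, LSM11 and LSM4 (−0.94), U2SURP and PRPF40B lie left of it.

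Of the accessory factors, 2 were further above 0 than any snRNP gene. U2AF1, the subunit that reads the AG at the 3′ splice site, was at 1.05 (mean normalized count 238, adjusted p 1.11e-06, SE 0.21) in the authors' deposited table. A near-identical copy of U2AF1 in some genome builds can take reads from it, so its value is uncertain. U2AF2, which binds the polypyrimidine tract, had a mean normalized count of 7642 and stood at 0.73 (adjusted p 4e-36, SE 0.06) in the authors' deposited table. The difference between the U2AF subunits had an interval across 0 (−0.11 to 0.76). PRPF18, a factor of the second catalytic step, was at 1.02 (mean normalized count 200.4, adjusted p 1.01e-05, SE 0.23) in the authors' deposited table. CWC22, which loads the exon junction complex onto spliced mRNA, stood at 0.76 (adjusted p 6.67e-15) in the authors' deposited table. PRPF38B was at 0.56, PRPF39, a U1-associated factor, at 0.44, the ubiquitin ligase PRPF19 at 0.32 and the helicase DHX15, which takes spliceosomes apart, at 0.31 in the authors' deposited table. The lower ones were U2SURP, a U2-associated protein, at −0.25 and PRPF40B at −0.90 (mean normalized count 162, adjusted p 0.000676, SE 0.27) in the authors' deposited table. PRPF40B overlaps FMNL3, which was also lower at −0.83 in that table of the authors.

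Classical SR proteins went both ways, while the 4 SR-related genes with a value were higher. SRSF2 was lowest at −0.60 (mean normalized count 2323, adjusted p 4.65e-14, SE 0.08) in the authors' deposited table, followed by SRSF1, the founding member of the family, at −0.42 (adjusted p 2.17e-06, SE 0.08) and SRSF5 at −0.31. SRSF2 overlaps MFSD11, which was lower too at −0.35 in the authors' deposited table. SRSF8, a relative of SRSF2, was at 0.45, SRSF9, the closest relative of SRSF1, at 0.40, and SRSF4, SRSF11 and SRSF6 at 0.31, 0.30 and 0.24 in the authors' deposited table. SRSF9 exceeded SRSF1 by 0.82 (interval 0.59 to 1.05) and SRSF8 exceeded SRSF2 by 1.04 (interval 0.77 to 1.32). SRSF4 and SRSF6, which belong with SRSF5 to 1 branch of the family, did not differ beyond their errors (0.07, interval −0.11 to 0.25), and SRSF5 lay below both. SRRM1, a coactivator that bridges enhancer complexes, was at 0.61 (mean normalized count 5091, adjusted p 1.93e-24, SE 0.06) in the authors' deposited table. SON, a nuclear speckle scaffold, was at 0.56 (mean normalized count 9339, adjusted p 1.17e-26, SE 0.05) there, beside an overlapping gene GART at 0.23 in the authors' deposited table. The other speckle scaffold SRRM2 was at 0.26, and TRA2B, a sequence-specific splicing activator, at 0.42 in the authors' deposited table.

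A row needed an adjusted p under 0.05, and 5 of the 6 RefSeq names of SR protein kinases had one, SRPK2 having none. Over all RefSeq protein-coding names the share with a row was 35.4%. CLK4 was highest at 0.73 (mean normalized count 409, adjusted p 2.22e-05, SE 0.17) in the authors' deposited table. CLK1 was at 0.61 (mean normalized count 1730, adjusted p 9.64e-10, SE 0.10) there, and the difference between CLK4 and CLK1 had an interval across 0 (0.13, −0.25 to 0.51). CLK2 was lower at −0.47 (mean normalized count 782, adjusted p 0.000254, SE 0.12) in the authors' deposited table. CLK3 was at 0.23 (mean normalized count 1344, adjusted p 0.0286, SE 0.09) in the authors' deposited table. CLK1 exceeded CLK2 by 1.08 (interval 0.78 to 1.39) and CLK3 by 0.38 (interval 0.12 to 0.64), so the family held a higher pair, a slightly higher gene and a lower gene. CLK2 overlaps HCN3 (−0.53) and CLK3 overlaps EDC3 (0.67) on the opposite strand, each partner moving the same way as the kinase in the authors' deposited table. SRPK1, which phosphorylates SR proteins for import into the nucleus, was at 0.27 (mean normalized count 2676, adjusted p 0.00132, SE 0.08) in the authors' deposited table.

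The hnRNP genes had the smallest median size of change of the 6 role groups, 0.35 on the log2 scale in the authors' deposited table. HNRNPU, a nuclear scaffold protein, had a mean normalized count of 22978 and a log2 fold change of −0.12 (SE 0.04), the change closest to 0 of the whole deposited table of the authors. HNRNPR was at −0.12 with an adjusted p of 0.0493, just inside the threshold of the authors' deposited table. HNRNPM, HNRNPA2B1 and HNRNPH1 were lower as well, at −0.33, −0.28 and −0.19 in the authors' deposited table. HNRNPAB was at 0.58 (mean normalized count 4866, adjusted p 3.86e-12, SE 0.08), HNRNPL, which binds CA repeats, at 0.51, HNRNPA3 at 0.48 and HNRNPH2 at 0.46 in the authors' deposited table. HNRNPUL2, HNRNPD, which also acts in mRNA decay, and HNRNPA0 were at 0.37, 0.34 and 0.29 in the authors' deposited table. In relatives picked for opposite directions, HNRNPA3 exceeded HNRNPA2B1 by 0.76 (interval 0.62 to 0.90), and HNRNPH2 exceeded HNRNPH1 by 0.65 (interval 0.44 to 0.86). PTBP2, the neuronal relative of PTBP1 and an inhibitor of exon inclusion, was at 0.84 (mean normalized count 384, adjusted p 7.48e-07, SE 0.17) in the authors' deposited table. HNRNPA1L2, a retrocopy of HNRNPA1, was highest at 0.96 (mean normalized count 111, adjusted p 0.00159, SE 0.31) in the authors' deposited table. Reads of HNRNPA1 and its copies can be split between them, so that value is uncertain.

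**Figure D4:**
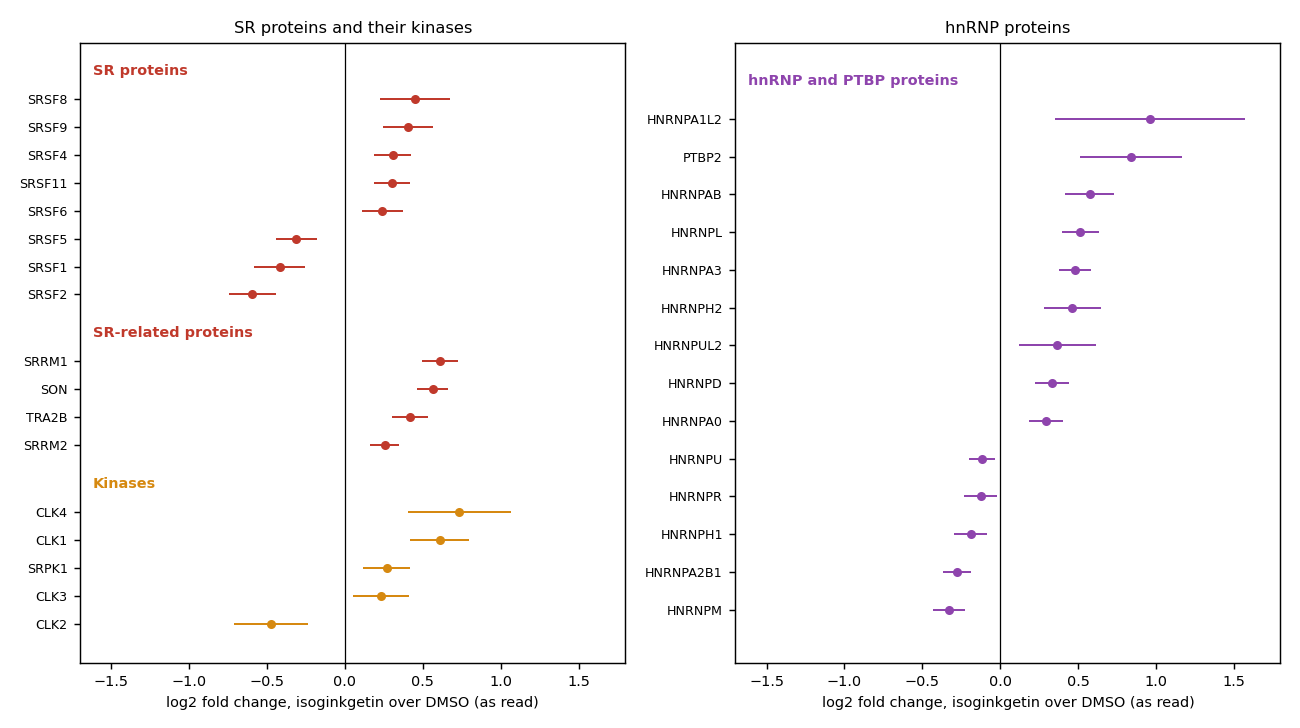
Log2 fold change (isoginkgetin over DMSO, as read) of SR proteins, SR-related proteins, kinases and hnRNP proteins in the authors' deposited table, with bars of 1.96 SE on each side. SRSF5, SRSF1, SRSF2 (−0.60), CLK2 (−0.47) and 5 hnRNP genes lie left of 0, and the 4 SR-related genes lie right of it.

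RBM genes held 5 of the 7 splicing genes that were at least 2-fold higher, and not all of them are splicing factors. RBM39, a relative of U2AF2 that works with U2AF, had a mean normalized count of 17313 and stood at 1.14 (adjusted p 1.1e-90, SE 0.06) in the authors' deposited table. It stood at rank 125 from the top among the 3645 genes with a count of 1000 or more there, and RBM24, a splicing regulator known from muscle, at rank 56 with a change of 1.38 (mean normalized count 1043, adjusted p 3.44e-38, SE 0.11) in the authors' deposited table. RBM18, whose role is less known, was at 1.17 (mean normalized count 771, adjusted p 1.39e-20, SE 0.12) in the authors' deposited table. RBM23, the closest relative of RBM39, was at 2.12 but with a mean normalized count of 39.4 and an SE of 0.56 in the authors' deposited table. The difference of RBM39 from RBM23 had an interval across 0 (−0.97, −2.08 to 0.14). RBM44 was at 1.06 with a mean normalized count of 22.3, an SE of 0.79 and an adjusted p of 0.0447, and its interval of −0.49 to 2.62 crosses 0 although the p of the authors' deposited table passed.

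Smaller increases covered RBM genes of several functions. In the authors' deposited table RBM22, which contacts the catalytic core of the spliceosome, was at 0.64 and RBM42 at 0.70. RBM26 and RBM27, relatives that act in the nuclear decay of polyadenylated RNA, were at 0.56 and 0.70 in the authors' deposited table, with a difference whose interval crosses 0 (−0.44 to 0.15). RBM7, of the nuclear exosome targeting complex, was at 0.51, RBM28, of ribosome assembly, at 0.56 and RBM19, of the same process, at 0.22 in the authors' deposited table. RBM12, RBM33, RBM47 and RBM14 were at 0.61, 0.47, 0.40 and 0.28, and the cold-induced RBM3 at 0.20, in the authors' deposited table. RBM10 and RBM6, related regulators of alternative exons, were lower at −0.69 (adjusted p 1.67e-14, SE 0.09) and −0.80 (adjusted p 8.57e-24, SE 0.08) in the authors' deposited table. RBM45 was lower at −0.51 (SE 0.20) in the authors' deposited table.

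**Figure D5:**
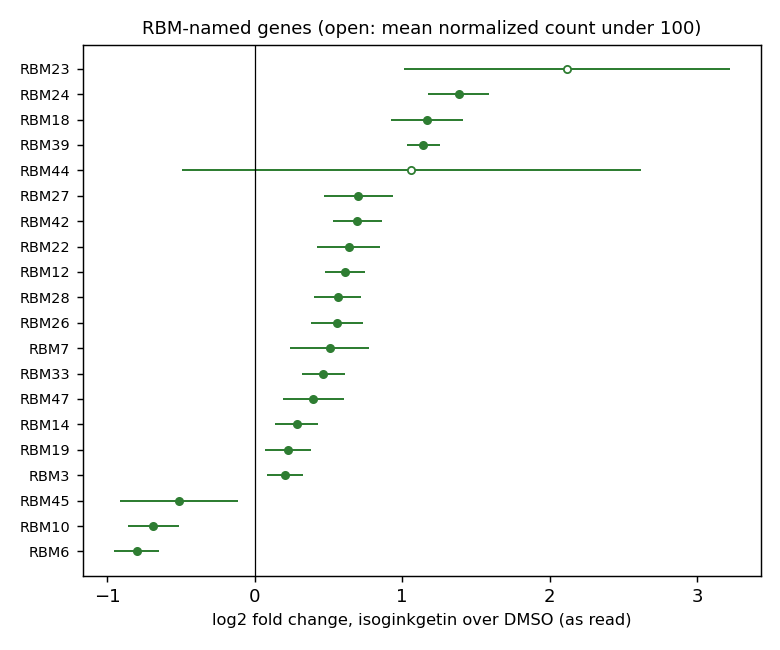
Log2 fold change (isoginkgetin over DMSO, as read) of 20 RBM genes in the authors' deposited table, with bars of 1.96 SE on each side and open points for a mean normalized count under 100. RBM23 and RBM44 have the widest bars, RBM39 (1.14) has a narrow one, and RBM45, RBM10 and RBM6 lie left of 0.

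Related genes that carry other names were counted in the same way. Of 53 other spliceosome subunits 38 had a row in the authors' deposited table, 35 higher and 3 lower, with a median of 0.51. ZRSR2, which recognises the 3′ splice site of minor introns and is related to U2AF1, was at 1.84 (adjusted p 6.4e-17, SE 0.22), CWC25, of the first catalytic step, at 1.41 (adjusted p 1.47e-37, SE 0.11) and TXNL4B, a relative of a U5 protein, at 1.13 (adjusted p 4.88e-15, SE 0.14) in the authors' deposited table. Splicing regulators outside the SR and hnRNP names split into 7 higher and 10 lower among 17 of 35 (median −0.21) in the authors' deposited table. ESRP2, an epithelial splicing regulator, was at −0.96 and TIA1, which aids U1 at weak 5′ splice sites, at −0.90, while ZRANB2, an SR-like protein, was at 0.96, in the authors' deposited table. Genes of snRNP assembly and import were 8 higher and 4 lower among 12 of 19 (median 0.47), with STRAP of the SMN complex at 0.93, the cap methylase TGS1 at 0.69 and GEMIN8 at −0.74 in the authors' deposited table. Exon junction and mRNA export genes were 11 higher and 4 lower among 15 of 17 (median 0.47), with ALYREF at 0.90, MAGOH at 0.88 and DDX39A at 0.79 in the authors' deposited table. Genes of 3′ end processing were 6 higher and 4 lower among 10 of 16 (median 0.23), with the nuclease CPSF3 at −0.80, PCF11 at 0.79 and CLP1 at 0.58 in the authors' deposited table. Over the whole deposited table of the authors 51.5% of genes were higher, and none of these lists was tested against it. Of all RefSeq protein-coding names 35.4% had a row there.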

How the data were processed

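Samples were grouped by their titles; the series' design text gives dose and duration. RNA, per the labels' protocols, was selected for polyadenylation and the libraries keep no strand. STAR 2.7.0 and featureCounts are named in the submitters' processing notes, with 2 builds, hg19 and mm10, neither tied to these libraries. The columns are those of DESeq2 results, per the file headers; which version, model and numerator the authors used is not stated there. What the authors deposited as mean normalized count is treated as a signal: an average over libraries after scaling by size factors. The change and the SE that the authors deposited are log2 values. The authors deposited a p-value and an adjusted p-value for every gene; adjusted p times rank over p gave 20024 genes tested, a step tested on simulated data. The ratio of change to SE was below the normal deviate of the gene's p-value (median of their quotient 0.588 for 4 members at counts under 100, 0.990 for 70 at 1000 or more), so low-count changes look shrunken.

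A count model was not run, since the table has no library values, and the authors' per-gene results stand in its place. Members and lists were chosen with earlier results of these data known. Full statistics go to the 3 largest changes of each role group with a mean normalized count of 100 or more, every kinase and 12 genes fixed by name; of each related list the 3 largest are named. PHF5A, overlapping genes, further members, pairs and motifs were chosen after values were seen. Intervals of differences between 2 genes treat their errors as independent; 28 pairs were computed and 20 intervals lay off 0. Role groups were set by symbol, biotypes and promoters are from RefSeq (GRCh38.p14), and overlaps from GENCODE 29 spans, used for neighbourhood only, on another build than hg19. Promoter entries were found for 87 members. Depth per library is unknown, and precision follows the level: the SE of members ranged from 0.044 to 0.870. Python 3.11.15, pandas 2.3.3, numpy 2.4.6 and scipy 1.17.1 were used.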

Additional observations from a re-analysis of the deposited data

How the results depend on the processing

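No paired analysis was possible because the table holds no value per library, and for the same reason leaving out libraries and count fits with other size factors or with no low-count filter were not run. Of 72 counts recomputed, 54 stayed within 1.5 times the value as deposited. At a change of at least 1.5-fold 28 members were higher and 8 lower. These are 36 of 97 members, against 5243 of the 8727 genes of the table, which are 26.2% of all genes tested. At mean normalized counts of 1000 or more 20 of 70 members reached that fold, against 1433 of 3645 table genes. By group, higher and lower genes at that fold were 10 and 3 for the snRNP core, 4 and 1 for accessory factors, 1 and 1 for SR proteins, 2 and 0 for hnRNP proteins and 2 and 0 for kinases, and 9 and 2 for RBM genes. At an adjusted p under 0.001, 76 of 97 members were left, with 2 lower hnRNP genes and 2 higher kinases. With changes centred on the table's median (0.21), SNRPD1 (−0.018) and RBM3 (−0.0083) turned to lower, and the other 95 kept their direction. Without the 23 members that overlap another gene of the table, a choice made after seeing the data, 13 lower members were left beside 61 higher, with 1 lower accessory factor and 0 lower kinases. A mean count of at least 100 or protein-coding names alone moved none of the counts by over 1.5 times. Depth per library is unknown, and changes under about 0.12 on the log2 scale did not reach the table.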

Other observations

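The name rule also caught a pair of rows that code for no protein. RBM26-AS1, an RNA antisense to RBM26, was at −1.39 (SE 0.87, adjusted p 0.0214) with a mean normalized count of 18.3 in the authors' deposited table, beside RBM26 at 0.56. HNRNPA1P68, a pseudogene inside SLC30A7, was at 0.31 (SE 0.68) with a count of 3.32 there, and SLC30A7 at 0.80 in the authors' deposited table. Both intervals cross 0.

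Of the 97 members 23 overlap another gene of the table, 20 of them on the opposite strand, and some partners moved much further than the member. SNRNP27 (0.47) overlaps MXD1 at 1.999 in the authors' deposited table. SNRPA (0.65) overlaps C19orf54 at −1.42, HNRNPAB (0.58) overlaps PHYKPL at −0.94, LSM3 (0.61) overlaps XPC at −0.92 and LSM7 (0.53) overlaps SPPL2B at −0.86 in the authors' deposited table. MXD1 lies on the same strand as SNRNP27, and the other partners named in this paragraph lie on the opposite strand of their member. As the libraries keep no strand, reads in the shared stretches cannot be assigned in either case. The share of reads there was not tested.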
